A study of Mus musculus with 9 samples.

Results

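Bivalent peaks were the H3K4me3 peaks on chromosomes 1 to 19, X and Y that shared at least 1 bp with an H3K27me3 peak, 2039 of 16899 H3K4me3 peaks (12.1%, 95% Wilson interval 11.6 to 12.6%). The peaks were chosen by the positions of these 2 marks, so their overlap, widths and fold enrichments for H3K4me3 and H3K27me3 are given as a description, and the H3K27ac, EZH2, SUZ12, N-MYC and p300 lists are the measurements that the choice did not use. The libraries were made by ChIPmentation, a form of chromatin immunoprecipitation in which a transposase adds the sequencing adapters, on thymus cells of C57BL/6J mice with MYCN-driven T-cell lymphoma. Each of 7 antibodies (H3K4me3, H3K27me3, H3K27ac, EZH2, SUZ12, N-MYC and p300) had 1 library and 1 peak list, and together the lists held 282301 peaks. There was no untreated or normal thymus sample, and the genetic construct that carries MYCN, its promoter and the age of the mice are not given in the sources used here. With 1 library per antibody nothing below has a replicate check, and the intervals cover counting error only, as though peaks were independent.

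H3K4me3, trimethylation of a lysine near the tip of histone H3, marks the starts of active or activatable genes. H3K27me3 is deposited by Polycomb repressive complex 2 (PRC2), in which EZH2 is the methylase and SUZ12 a core subunit, and it accompanies gene silencing. The acetylated form of the same lysine, H3K27ac, is written by p300 among other acetylases, marks active promoters and enhancers, and cannot sit on a histone tail whose lysine is methylated. Promoters that hold both H3K4me3 and H3K27me3 were first described in embryonic stem cells, mostly at developmental regulators on CpG-rich DNA, and such bivalent promoters are also known in thymocytes and T cells. In a bulk tumour, both marks on the same nucleosome, on different alleles or in different cells cannot be told apart.

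The promoters of 4 bivalent genes are shown because the results turn on how the marks lie across them. Each sequence is the 250 bases before the annotated start in the RefSeq GRCm38.p6 promoter table, 5′ to 3′ on the strand of the gene, with each CpG in capitals. Ptch1, the Hedgehog receptor (minus strand, chr13:63565736-63565985), Hipk2, a nuclear kinase (minus strand, chr6:38876191-38876440), and Tal1, a basic helix-loop-helix factor of blood stem cells and T-cell leukaemia (plus strand, chr4:115056176-115056425), were the 3 genes with a promoter entry whose weaker mark was strongest. Gpbp1, which encodes a GC-rich promoter binding protein (minus strand, chr13:111490128-111490377), held the highest H3K27ac fold.
Ptch1: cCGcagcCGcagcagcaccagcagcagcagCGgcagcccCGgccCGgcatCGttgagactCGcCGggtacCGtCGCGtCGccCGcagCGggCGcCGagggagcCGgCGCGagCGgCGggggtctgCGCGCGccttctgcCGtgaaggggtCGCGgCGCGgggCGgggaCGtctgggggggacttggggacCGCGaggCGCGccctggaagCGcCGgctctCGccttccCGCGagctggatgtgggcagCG
Hipk2: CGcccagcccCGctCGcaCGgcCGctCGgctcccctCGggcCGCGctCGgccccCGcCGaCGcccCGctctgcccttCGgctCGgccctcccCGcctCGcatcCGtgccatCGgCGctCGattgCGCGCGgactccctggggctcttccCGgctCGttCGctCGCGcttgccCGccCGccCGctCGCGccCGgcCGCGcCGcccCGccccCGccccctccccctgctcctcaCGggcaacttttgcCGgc
Tal1: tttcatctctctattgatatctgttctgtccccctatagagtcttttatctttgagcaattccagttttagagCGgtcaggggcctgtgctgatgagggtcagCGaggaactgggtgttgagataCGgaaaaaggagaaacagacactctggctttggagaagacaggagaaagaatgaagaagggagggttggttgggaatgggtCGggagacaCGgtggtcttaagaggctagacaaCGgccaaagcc
Gpbp1: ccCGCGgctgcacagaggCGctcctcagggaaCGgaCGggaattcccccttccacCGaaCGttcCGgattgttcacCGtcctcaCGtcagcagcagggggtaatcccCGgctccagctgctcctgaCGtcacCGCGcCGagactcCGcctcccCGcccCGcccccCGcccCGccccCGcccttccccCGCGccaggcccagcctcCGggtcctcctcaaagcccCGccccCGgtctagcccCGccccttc
The Ptch1, Hipk2 and Gpbp1 stretches held 41, 43 and 27 CpGs, while the Tal1 stretch held 6, so CpG density was not shared by all 4.

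These 4 genes also showed how differently the marks could be arranged inside a bivalent peak. At Tal1 the H3K4me3 peak of 8396 bp, the longest overlap of all, lay wholly inside an H3K27me3 peak of 20827 bp. Its fold enrichment over background was 19.9 for H3K4me3, 23.3 for H3K27me3, 8.81 for H3K27ac, 18.9 for EZH2 and 18.3 for SUZ12, with no N-MYC or p300 peak. Each fold is that of the overlapping peak at its own summit, which can lie outside the bivalent peak. At Hipk2 the marks shared 3287 of 4268 bp and their summits were 80 bp apart, with folds of 33.8 and 20.3. Ptch1 and Gpbp1 were bivalent only at an edge. The Ptch1 peak of 7238 bp shared 201 bp with H3K27me3 and the summits were 8145 bp apart, and the Gpbp1 peak of 4298 bp shared 41 bp (0.954%). The H3K27me3 peaks concerned had folds of 23.3 at Ptch1 and 10.1 at Gpbp1, reached at summits outside the bivalent peak, and both genes also had EZH2, N-MYC and p300 peaks but none of SUZ12. Thus high folds of both marks at 1 peak did not require that the marks cover the same bases.

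Over all 2039 bivalent peaks the marks shared a median of 595 bp (95% interval of the median 563 to 627), with quartiles of 289.5 and 1147 bp. H3K27me3 covered a median of 98.4% of the peak, and 1012 peaks (49.6%, 47.5 to 51.8%) were wholly covered. The remaining peaks fell into 3 arrangements. In 634 peaks H3K27me3 covered 1 edge, in 236 it covered both edges with a gap between, and in 157 the H3K27me3 peaks lay entirely inside the H3K4me3 peak. The wholly covered peaks were narrow and weak in H3K4me3 (median width 567 bp, fold 5.01), whereas peaks with H3K27me3 inside were wide and strong (2688 bp, 19.7-fold) and held weak H3K27me3 (4.17-fold, against 11.9 in the wholly covered). Across the 2039 peaks H3K4me3 fold and covered share had a Spearman correlation of -0.58, and H3K4me3 and H3K27me3 fold one of -0.24, given as a description because all points come from the same pair of libraries.

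Most bivalent peaks, 1634 of 2039 (80.1%), met a single H3K27me3 peak, and the widest H3K27me3 peak at each had a median width of 3861 bp. The median distance from the H3K4me3 summit to the nearest summit of an overlapping H3K27me3 peak was 835 bp (801 to 877), with quartiles of 413.5 and 1483.5 bp. Summits lay within 500 bp of each other at 612 peaks (30.01%). The H3K4me3 summit was inside an H3K27me3 peak at 1408 peaks (69.1%, 67.0 to 71.0%), and the H3K27me3 summit was inside the H3K4me3 peak at 842 (41.3%, 39.2 to 43.4%). In 77 peaks the summits were over 5000 bp apart. The most distant pair was at Hoxa13, a homeobox gene of limb and hindgut, where a 210 bp H3K4me3 peak lay 45501 bp from the summit of an H3K27me3 peak of 73737 bp. Among peaks with a gene start within 1 kb, Epn2, an endocytic adaptor, Tmem151b and Ptpre, a receptor phosphatase, followed at 17732, 15716 and 13963 bp, while peaks with no gene start within 1 kb reached 29475 bp. At each of these 4 genes the small H3K4me3 peak was wholly covered and had EZH2 and SUZ12 but no H3K27ac.

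The choice rested on the position of a peak edge. The 3 shortest overlaps were 3, 4 and 6 bp, at peaks with H3K4me3 folds of 31.3, 19.1 and 23.1. The 3 nearest peaks outside lay 5, 6 and 7 bp from an H3K27me3 peak, with folds of 29.5, 7.70 and 5.81. In all, 473 of the 14860 other H3K4me3 peaks (3.18%) were within 1 kb of H3K27me3, and 149 bivalent peaks (7.31%) shared under 200 bp.

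Bivalent peaks were most frequent among H3K4me3 peaks of middling strength. When the 16899 peaks were divided into 10 equal groups by H3K4me3 fold, the bivalent share was 13.9% in the weakest group, 24.1% and 24.0% in groups 4 and 5, and 1.42% (0.956 to 2.10%) in the strongest. The median H3K4me3 fold was 7.54 at bivalent peaks and 18.0 at the others, and the median width was 1111 against 1760 bp. By chromosome the bivalent share ran from 8.96% on chromosome 9 to 16.3% on chromosome 4, and it was 7.31% (5.28 to 10.04%) on X and 0 of 9 peaks on Y.

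**Figure D1:**
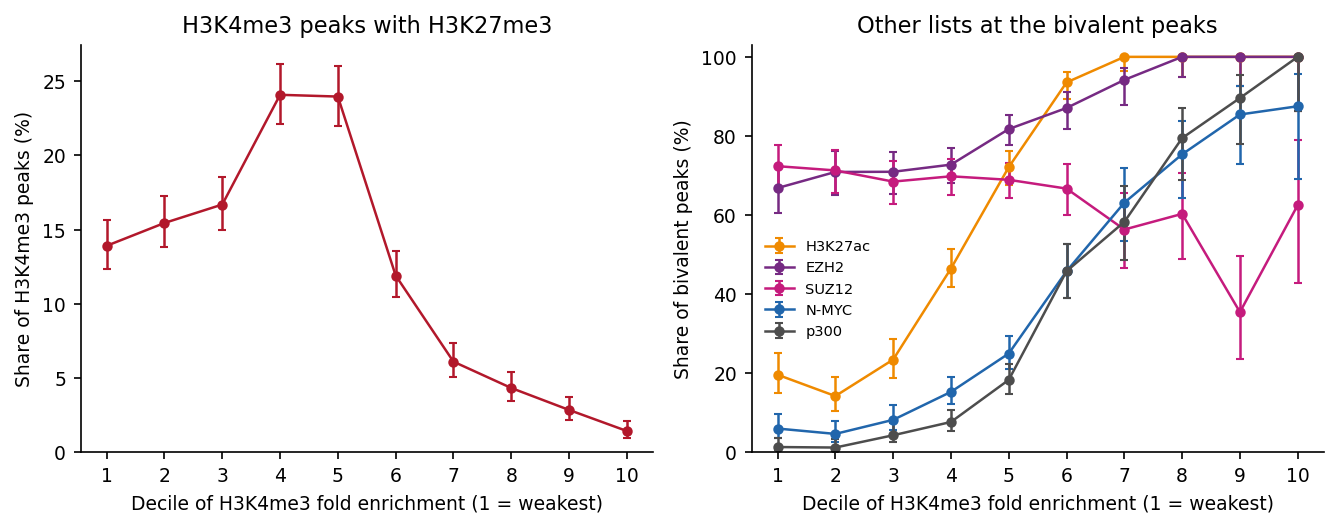
Left, share of H3K4me3 peaks that overlap H3K27me3 (%) in each of 10 equal groups of the H3K4me3 list by fold enrichment; right, share of the bivalent peaks (%) in each group that overlap each other list. Points are shares and bars 95% Wilson intervals. The bivalent share is highest in groups 4 and 5 (24.1% and 24.0%), H3K27ac reaches 100% from group 7, and SUZ12 lies between 66.7% and 72.3% in groups 1 to 6.

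H3K27ac divided the bivalent peaks into groups of similar size. It was called at 1066 of 2039 (52.3%, 50.1 to 54.4%), compared with 81.3% of all H3K4me3 peaks. The median width of bivalent peaks with H3K27ac was 1819 bp, against 527 bp without. H3K4me3 fold was 13.2 with and 4.90 without H3K27ac, and H3K27me3 fold was 7.67 and 11.1. H3K27me3 covered a median of 59.2% of the peaks with H3K27ac and 100% of those without, and the H3K4me3 summit was inside H3K27me3 in 51.7% (48.7 to 54.7%) and 88.1% (85.9 to 89.97%). The median summit distance was nearly equal, 848.5 and 829 bp.

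Peak strength and H3K27ac moved together, so the 2 kinds of H3K4me3 peak were also set side by side at equal H3K4me3 fold. In the weakest group H3K27ac was called at 19.6% (15.0 to 25.1%) of bivalent peaks and 53.5% of the others, and in group 4 at 46.4% (41.6 to 51.3%) and 80.6%. From group 7 upward all bivalent peaks had H3K27ac, as did at least 99.8% of the others. The lower H3K27ac share of bivalent peaks was therefore present among weak and middling H3K4me3 peaks and could not be seen among the strong ones. H3K27ac fold, where called, had a median of 5.89 at bivalent peaks and 12.1 at the others.

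The share with H3K27ac was lower in each bin of peaks that H3K27me3 covered further. Of 117 bivalent peaks covered over less than 10% of their length, 93.2% (87.1 to 96.5%) had H3K27ac. At 25 to 50% covered the share was 76.1%, at 75 to under 100% it was 61.9%, and at the 1012 wholly covered peaks it was 28.4% (25.7 to 31.2%). Along the same bins N-MYC went from 66.7% to 6.42% and p300 from 62.4% to 1.98%, while SUZ12 went from 21.4% to 84.5% and EZH2 stayed between 65.9% and 84.2%. H3K4me3 fold changed along these bins too, from a median of 21.7 to 5.01, and so did peak width, from a median of 2607 to 567 bp. A wider peak has more bases that can meet another list. The parts of fold and width in these shares were not tested.

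**Figure D2:**
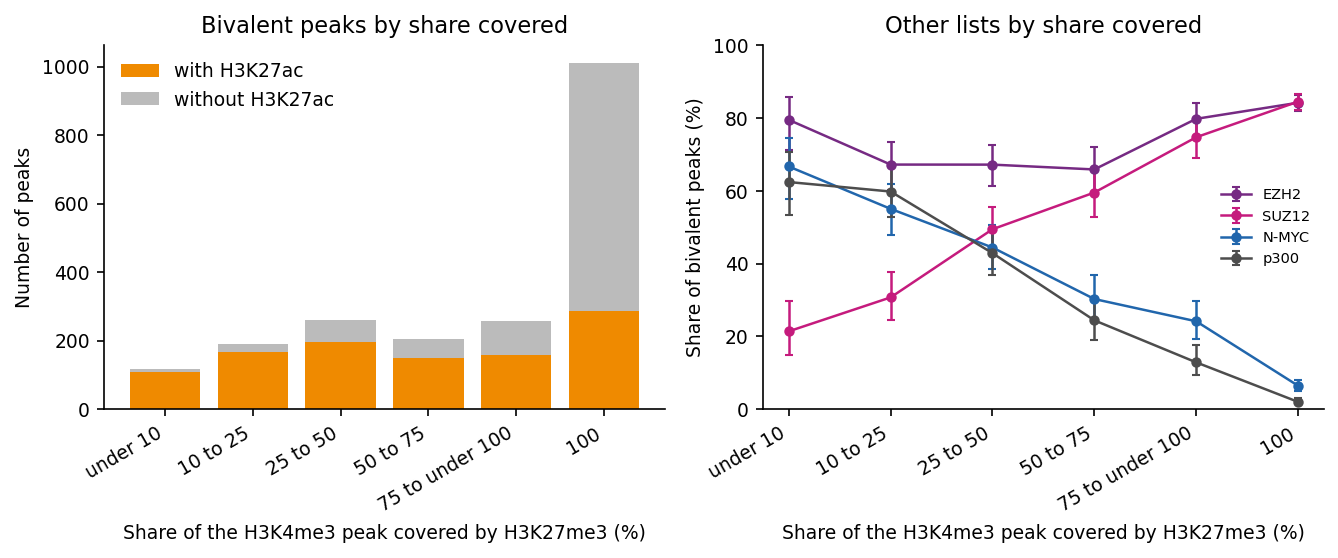
Left, number of bivalent peaks by the share of the H3K4me3 peak covered by H3K27me3 (%), divided by H3K27ac; right, share of the peaks in each bin (%) that overlap EZH2, SUZ12, N-MYC or p300, with 95% Wilson intervals. From under 10% to 100% covered, N-MYC goes from 66.7% to 6.42% and SUZ12 from 21.4% to 84.5%.

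H3K27ac and H3K27me3 shared at least some bases in most acetylated bivalent peaks. Their peaks shared bases inside 890 of the 1066 acetylated bivalent peaks (83.5%, 81.1 to 85.6%), over a median of 323 bp (quartiles 142 and 707.75). At the 287 acetylated peaks that H3K27me3 covered wholly, such sharing was fixed in advance. The strongest H3K27ac summit was inside H3K27me3 at 502 of the 988 peaks where it lay inside the bivalent peak (50.8%, 47.7 to 53.9%). The mean covered share of these peaks was 57.0%. Wholly covered peaks were among them, where this too was fixed in advance, so a preference for covered or uncovered bases was not tested. The H3K27ac summit was a median of 133 bp from the H3K4me3 summit and the nearest H3K27ac and H3K27me3 summits were a median of 715 bp apart. The longest stretch named here with both forms of the lysine was at Gfi1, a zinc-finger repressor of early T-cell and myeloid development, whose peak of 10749 bp held both over 7500 bp with folds of 16.1 for H3K27ac and 5.04 for H3K27me3. Slc4a1, the red-cell anion exchanger, Tal1 and Zeb2, a zinc-finger homeobox repressor, held both over 4881, 4802 and 4139 bp. By contrast, Bcl11a, a zinc-finger factor of B-cell development, had a wholly covered H3K4me3 peak of 7209 bp with 18.7-fold H3K4me3 and 15.1-fold H3K27me3 and no H3K27ac peak.

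EZH2 was called at 1586 bivalent peaks (77.8%, 75.9 to 79.5%), against 48.5% of all H3K4me3 peaks, and SUZ12 at 1380 (67.7%, 65.6 to 69.7%), against 8.37%. Of the 14860 other H3K4me3 peaks, 34 (0.229%) had SUZ12 and 6610 (44.5%) had EZH2. The share with EZH2 in bivalent peaks with and without H3K27ac differed by less than the counting intervals, 77.7% (75.1 to 80.1%) and 77.9% (75.2 to 80.4%). The intervals of the share with SUZ12 did not overlap: 58.6% (55.6 to 61.6%) with H3K27ac and 77.6% (74.9 to 80.1%) without. EZH2 without SUZ12 therefore made up 21.3% (18.9 to 23.9%) of the acetylated and 4.52% (3.39 to 6.02%) of the unacetylated bivalent peaks. Both shares were below the 40.6% of all H3K4me3 peaks and the 44.3% of H3K4me3 peaks without H3K27me3. Where both were called their folds had a Spearman correlation of 0.73 over 1315 bivalent peaks, and EZH2 and H3K4me3 folds one of -0.05 over 1586, again as a description.

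In acetylated bivalent peaks the EZH2 summit was more often inside H3K27me3 with SUZ12 than without, but the peaks with SUZ12 were also covered further. Counted where it lay inside the bivalent peak, the strongest EZH2 summit with SUZ12 was inside H3K27me3 at 398 of 522 peaks (76.2%, 72.4 to 79.7%). The mean covered share in those peaks was 71.8%. Without SUZ12 the EZH2 summit was inside H3K27me3 at 49 of 220 (22.3%, 17.3 to 28.2%), beside a mean covered share of 28.9%. The peaks with EZH2 and no SUZ12 were stronger in H3K4me3, with a median fold of 20.4 against 13.6, and the EZH2 summit was closer to the H3K4me3 summit, 157 against 260 bp. A larger share of them held N-MYC (56.4% against 41.3%) and p300 (54.2% against 34.3%). In the 3 weakest groups of H3K4me3 peaks, EZH2 was at 66.8 to 70.9% of bivalent peaks and 0.412 to 1.42% of the others, whereas in the strongest group it was at all 24 bivalent peaks and 99.9% of the others. SUZ12 was at no more than 0.538% of the other peaks in any of the 10 groups.

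N-MYC was called at 486 bivalent peaks (23.8%, 22.0 to 25.7%), against 43.7% of all H3K4me3 peaks, and p300 at 400 (19.6%, 18.0 to 21.4%), against 54.4%. Most of these were acetylated, 427 of the 486 with N-MYC and 366 of the 400 with p300. N-MYC was at 40.1% (37.2 to 43.0%) of bivalent peaks with H3K27ac and 6.06% (4.73 to 7.74%) of those without, and p300 at 34.3% and 3.49%. At equal H3K4me3 fold the shares came closer in the strong groups, and for N-MYC they were also close in the weak groups. In group 1 N-MYC was at 5.96% (3.58 to 9.75%) of bivalent and 3.64% of other peaks, and in group 3 at 8.16% (5.50 to 11.9%) and 9.09%. For p300 the group 1 shares were 1.28% (0.435 to 3.69%) and 9.48%. In group 5 N-MYC was at 24.9% (20.97 to 29.4%) of bivalent and 41.4% of other peaks, and in group 8 at 75.3% (64.4 to 83.8%) and 73.5%. In group 5 p300 was at 18.3% (14.8 to 22.3%) of bivalent and 54.9% of other peaks, in group 7 at 58.3% (48.6 to 67.3%) and 85.4%, and in group 9 at 89.6% (77.8 to 95.5%) and 95.7%. Within acetylated bivalent peaks the strongest N-MYC summit was inside H3K27me3 at 77 of 416 peaks (18.5%, 15.1 to 22.5%), beside a mean covered share of 40.003%, and the strongest p300 summit at 51 of 360 (14.2%), beside 33.2%. The SUZ12 summit was inside at 430 of 479 (89.8%, 86.7 to 92.2%), beside 71.4%. Among these summits inside the acetylated bivalent peak, most of N-MYC and p300 thus lay on uncovered bases and most of SUZ12 on covered bases. In wholly covered peaks, which were included, a summit on covered bases was fixed in advance. The mean covered share takes no account of where in a peak summits tend to lie, so a preference was not tested. In the few unacetylated bivalent peaks with these summits, N-MYC was inside H3K27me3 at 28 of 48 (58.3%, 44.3 to 71.2%), beside a mean covered share of 74.5%, and p300 at 8 of 28 (28.6%), beside 55.6%.

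The highest N-MYC fold of all bivalent peaks, 30.8, was at a peak with no gene start within 1 kb. Among bivalent genes the highest were 16.7 at Pura, which encodes a purine-rich element binding protein, 16.2 at Mrpl23, a mitochondrial ribosomal protein gene, 15.3 at Serf2 and 13.7 at Pard6b, a cell polarity gene. H3K27me3 covered 47 of 2677 bp at Pura, 394 of 2311 bp at Mrpl23 and 253 of 3138 bp at Serf2, so at these 3 the H3K27me3 part was small. Pard6b held more, 1095 of 1938 bp at 7.24-fold, and had SUZ12 (4.17-fold) as well. After Gpbp1 (38.4-fold), the highest H3K27ac folds were 31.7 at Arrdc3, an arrestin-domain gene, 28.8 at Eif4a3, an RNA helicase of the exon junction complex, and 28.3 at Gata3. The marks shared 1072, 213 and 395 bp at these 3 genes. All 5 of the other lists met at 165 bivalent peaks (8.09%, 6.99 to 9.36%), beside 179 of all 16899 H3K4me3 peaks (1.06%). SUZ12 was at 0.229% of the H3K4me3 peaks without H3K27me3, so those could rarely hold all 5. N-MYC and p300 together went the other way, at 15.1% of bivalent peaks and 43.4% of the others.

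A larger share of bivalent peaks than of other H3K4me3 peaks lay at gene starts. A protein-coding gene start was within 1 kb of 1524 of 2039 bivalent peaks (74.7%, 72.8 to 76.6%) and of 60.8% (60.0 to 61.6%) of the others. These peaks marked 1508 of 21883 protein-coding genes (6.89%), while 9644 genes (44.1%) had only H3K4me3 peaks without H3K27me3, 3927 (17.9%) had H3K27me3 and no H3K4me3, and 6804 had neither. In all gene counts, H3K4me3 alone means H3K4me3 peaks that overlap no H3K27me3 peak. A separate H3K27me3 peak may still lie within 1 kb of the same start. Of the 1508 genes, 326 were placed by a gene end because the start was not in the promoter table, among them Slc4a1, Pcgf1, Pura, Myc, Lmo2, Rybp, Epop, Hey1, Ccnd2, Ikzf3, Fli1 and Cebpd. The 515 bivalent peaks with no start within 1 kb included 86 near the end of a long noncoding RNA gene and 202 with a protein-coding start within 5 kb. H3K27ac was at 42.7% (38.5 to 47.0%) of these 515 and at 55.5% (53.0 to 58.0%) of the peaks with a start.

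At gene starts the marks were not centred on the start. Over 1149 bivalent peaks whose gene direction was known, the H3K4me3 summit lay downstream of the start at 912 (79.4%, 76.9 to 81.6%). The H3K27me3 summit did so at 757 (65.9%, 63.1 to 68.6%). Over all 1149 peaks, upstream summits included, the median positions were 255 bp downstream for H3K4me3 and 550 bp downstream for H3K27me3. At the 642 starts with H3K27ac, an H3K27me3 peak covered the start itself in 44.1%, against 54.2% at 1 kb upstream and 67.9% at 1 kb downstream. At the 507 without H3K27ac the start was covered in 82.6%, with 81.9% and 92.1% 1 kb to either side. N-MYC was at 28.5% of acetylated starts and at 2.02% of the positions 1 kb downstream. Where H3K27me3 covered 1 edge of the peak, that edge was the downstream one in 149 of 279 acetylated peaks (53.4%, 47.5 to 59.2%) and 56 of 67 unacetylated ones (83.6%, 72.9 to 90.6%).

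**Figure D3:**
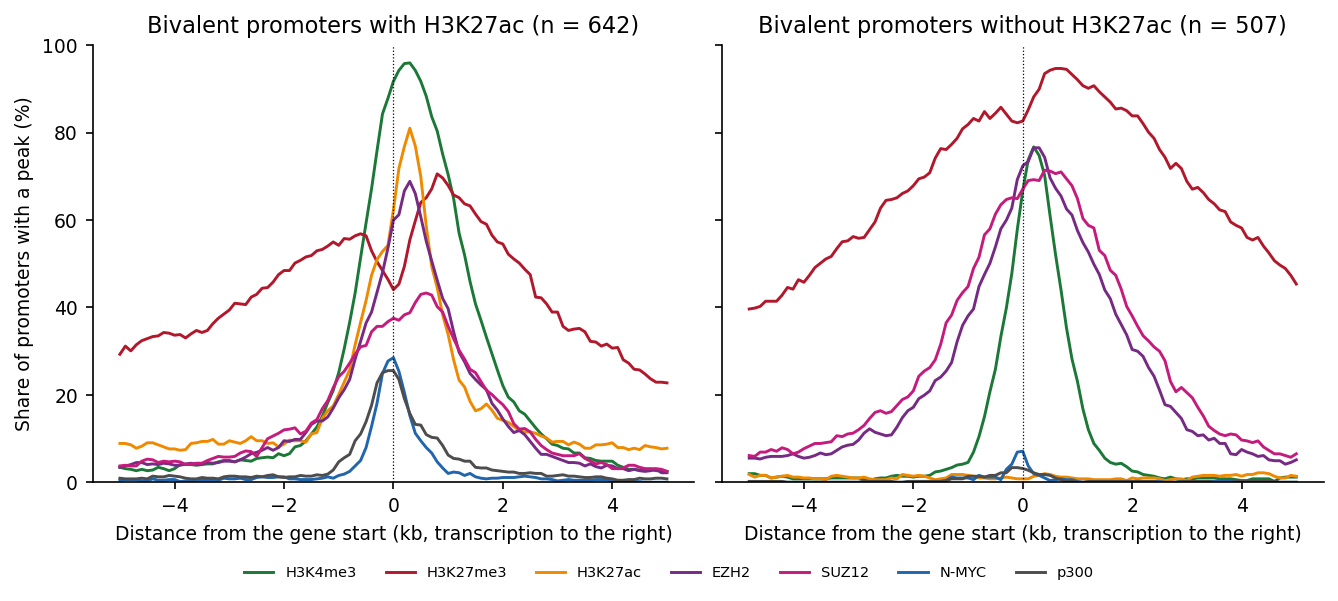
Share of bivalent promoters (%) that have a peak of each list at each distance from the gene start (kb, transcription to the right), for 642 promoters with H3K27ac (left) and 507 without (right). With H3K27ac, H3K27me3 is lower at the start (44.1%) than 1 kb upstream (54.2%) or downstream (67.9%), and N-MYC and p300 stand at the start; without H3K27ac, H3K27me3 covers the start in 82.6%.

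By sequence, bivalent promoters were CpG-rich, like other H3K4me3 promoters. The median ratio of observed to expected CpG in the 300-base RefSeq window (250 before to 50 after the start) was 0.779 for 1381 promoter entries of bivalent genes, 0.795 for 9522 with H3K4me3 alone, 0.489 for 3589 with H3K27me3 and no H3K4me3, and 0.181 for 6770 with neither. GC content was 66.3, 61.3, 57.7 and 46.7% in the same order. The ratio was at least 0.6 in 77.9% of bivalent promoters and 47.7% of all promoters. The E-box CACGTG, searched for as these letters on both strands, was in 10.1% (8.59 to 11.8%) of bivalent promoters. Promoters with H3K4me3 alone had it in 10.8% (10.2 to 11.4%), and all promoters in 7.84%. Among bivalent promoters it was in 11.02% (9.09 to 13.3%) with and 8.52% (6.43 to 11.2%) without H3K27ac. TATAAA, searched for on both strands, was in 6.08% (4.94 to 7.47%) of bivalent promoters, 5.91% of those with H3K4me3 alone and 12.6% of all. For both motifs bivalent promoters were thus close to other H3K4me3 promoters.

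Gene lists were read as counts of genes with a bivalent peak within 1 kb, beside the 6.89% of all protein-coding genes. The developmental regulators that define Polycomb targets in many tissues mostly carried H3K27me3 with no H3K4me3. Of 39 Hox genes, which set position along the body axis, 2 were bivalent and 36 had H3K27me3 alone, and all 9 Pax genes had H3K27me3 alone. Of 102 other homeobox genes 9 were bivalent (90 with H3K27me3 alone), of 15 T-box genes 1, and of 44 forkhead genes 5. Hoxb4, a gene of blood stem cells, differed from Hoxa13 in holding H3K4me3 at 29.5-fold and H3K27ac at 7.58-fold, with 2311 of 2680 bp covered by H3K27me3. Hhex and Hlx, homeobox genes active in blood progenitors, had wholly covered peaks with H3K4me3 at 4.38 and 6.53-fold, H3K27me3 at 12.01 and 24.4-fold, and no H3K27ac.

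The forkhead and Sox families each held bivalent peaks with and without H3K27ac. Foxp1 and Foxp4, forkhead genes expressed in lymphocytes, had strong H3K4me3 (40.2 and 36.1-fold), H3K27ac (19.8 and 17.7-fold) and N-MYC (11.2 and 7.31-fold), with H3K27me3 over 286 and 257 bp at 4.30 and 3.21-fold. Foxc1, a mesoderm factor, and Foxd2 had no H3K27ac and carried H3K27me3 at 26.5 and 24.0-fold with SUZ12 at 15.5 and 12.7-fold. Of 19 Sox genes 5 were bivalent, and all 5 peaks were wholly covered. Sox21, a neural factor, had the highest EZH2 fold of all bivalent peaks, 26.2, beside 5.31-fold H3K4me3 and no H3K27ac. Sox12 held weak H3K27ac (3.49-fold) and N-MYC (4.14-fold) on a 2389 bp peak. Of 6 GATA genes the bivalent one was Gata3, and 4 had H3K27me3 alone.

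**Figure D4:**
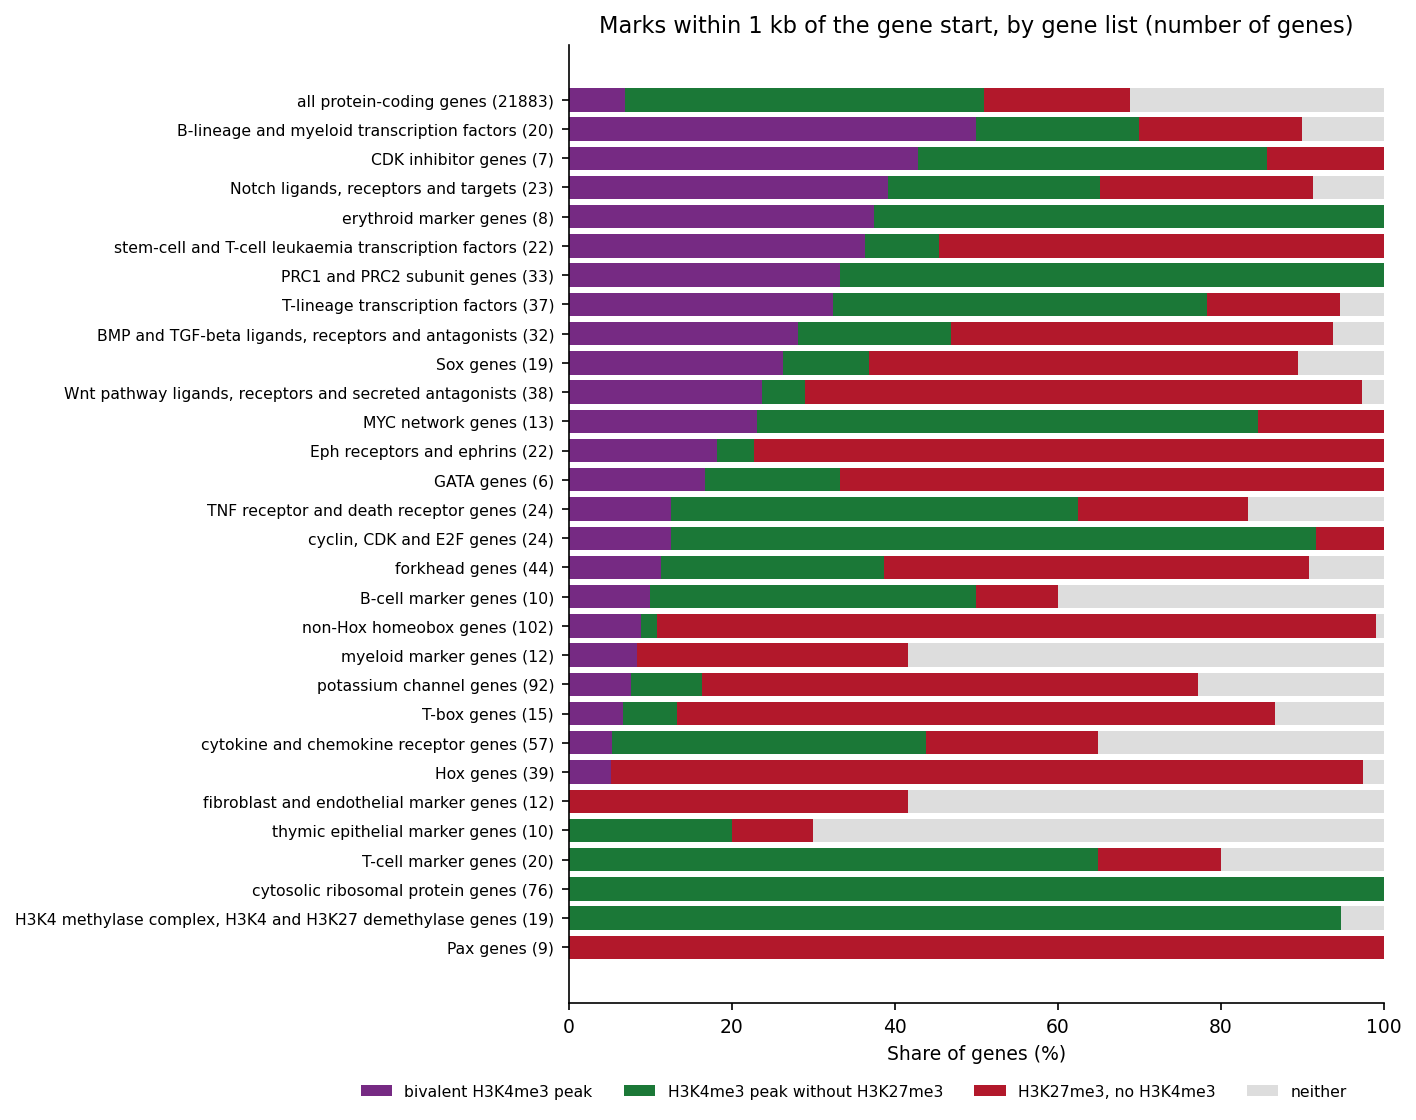
Share of the genes of each list (%) with a bivalent peak, an H3K4me3 peak without H3K27me3, H3K27me3 without H3K4me3, or neither within 1 kb of the gene start; the number of genes is in brackets and the top bar shows all 21883 protein-coding genes. Hox, Pax and other homeobox genes are mostly H3K27me3 without H3K4me3, and all 76 cytosolic ribosomal protein genes have H3K4me3 peaks that overlap no H3K27me3 peak.

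In 3 lists of blood transcription factors the bivalent counts were 12 of 37, 10 of 20 and 8 of 22, a larger share than in these families, though no test of that difference was made. Of 37 T-lineage factors 12 were bivalent, 10 of them with H3K27ac, and 17 had H3K4me3 alone. Of 20 B-lineage and myeloid factors 10 were bivalent, 4 of them with H3K27ac, and of 22 stem-cell and T-cell leukaemia factors 8 were bivalent, 5 with H3K27ac. The bivalent T-lineage genes were mostly strong H3K4me3 peaks with H3K27me3 over a minor part: their median H3K4me3 fold was 26.4, their median H3K27me3 fold 5.06 and their median covered share 22.1%. In the stem-cell and leukaemia list these medians were 13.2, 11.9 and 97.5%.

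Gata3, a factor of T-cell commitment, had the highest H3K4me3 fold of all bivalent peaks, 48.9, over 9126 bp, and H3K27me3 covered 395 bp of it at 4.04-fold. Bcl11b, needed for T-cell commitment, held H3K4me3 at 41.8-fold over 8306 bp, with 1837 bp covered by H3K27me3 at 4.69-fold and H3K27ac over 1772 bp of the covered bases. Lef1, the Wnt-responsive factor of thymocytes, had 39.4-fold H3K4me3, 15.0-fold H3K27ac and 10.6-fold p300, and its H3K27me3 (9.40-fold over 1343 bp) shared no bases with H3K27ac. Id3, an inhibitor of E proteins, reached 44.4-fold with 333 bp covered. These 4 genes carried small H3K27me3 parts beside strong active marks. Klf2, a factor of T-cell egress and quiescence, had the reverse balance, with 7.02-fold H3K4me3 and 14.2-fold H3K27me3 over 2845 of 2886 bp. Klf2 had no H3K27ac peak but held p300 at 5.77-fold. Id2 was the other T-lineage gene without H3K27ac, with 14.6-fold H3K4me3, 11.3-fold H3K27me3 and 10.6-fold SUZ12.

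In the B-lineage and myeloid list, Cebpa, the master factor of granulocytes, was wholly covered, with 6.81-fold H3K4me3, 15.5-fold H3K27me3 and no H3K27ac. Gfi1b, the erythroid and megakaryocyte relative of Gfi1, had summits 5 bp apart, 14.1-fold H3K4me3, 17.6-fold H3K27me3 and 5.74-fold H3K27ac. Cebpd, another myeloid factor, had summits 14 bp apart and 4.41-fold H3K27ac. Among the leukaemia factors, Lmo2, a partner of Tal1, had H3K27ac at 7.34-fold and both forms of the lysine over 3483 bp, and it had no EZH2, SUZ12, N-MYC or p300 peak. Lmo4, a relative of Lmo2, held 19.8-fold H3K4me3, 11.6-fold H3K27me3 and 6.25-fold N-MYC. Tal1 and Lmo2 thus shared long double-marked stretches and differed in PRC2 peaks.

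Marker genes of cell types were read in the same way. Of 20 T-cell markers 13 had H3K4me3, at 18.7 to 36.3-fold, and none was bivalent. The 7 with no H3K4me3 peak were Cd7, Cd8a, Cd8b1, Dntt, Ptcra, Rag1 and Rag2, of which Cd8a, Rag1 and Rag2 had H3K27me3. Of 10 B-cell markers 5 had H3K4me3, at a median of 4.74-fold. Among these Vpreb1 had 34.4-fold and the others 3.77 to 5.75-fold. H3K4me3 was at 1 of 12 myeloid markers (3.61-fold), 2 of 10 thymic epithelial markers (13.2 to 19.3-fold) and none of 12 fibroblast and endothelial markers. All 8 erythroid markers had H3K4me3, at 9.38 to 19.8-fold, and 3 were bivalent, all with H3K27ac. These were Epor, the erythropoietin receptor (H3K4me3 19.1-fold, H3K27me3 5.58-fold), Slc4a1 (13.1 and 9.92-fold), and Hba-a1, an alpha-globin gene with a near-identical copy that leaves its reads uncertain (18.3 and 8.31-fold). The part of red-cell precursors in the peaks at Tal1, Lmo2, Gfi1b and the globin gene was not tested.

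Of the 13 MYC network genes 3 were bivalent and 8 had H3K4me3 alone. Mycn itself and Mlxipl had H3K27me3 and no H3K4me3 peak within 1 kb. Myc, the paralogue of MYCN, was wholly covered over 4672 bp, with 11.1-fold H3K4me3, 8.23-fold H3K27me3, 14.0-fold EZH2, 11.4-fold SUZ12 and 3.63-fold H3K27ac. It had no N-MYC or p300 peak there. Mycl, the third family member, had 11.997-fold H3K4me3, 16.6-fold H3K27me3 and 9.65-fold SUZ12, with no H3K27ac, N-MYC or p300. Mxi1, a MAX-binding antagonist of MYC, was bivalent over 119 of 5040 bp and held N-MYC at 8.17-fold and H3K27ac at 13.4-fold.

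Of 7 CDK inhibitor genes 3 were bivalent, and of 24 cyclin, CDK and E2F genes 3. Cdkn2a, which encodes p16 and ARF, was wholly covered over 2474 bp with strong marks of both kinds, 24.5-fold H3K4me3 and 15.2-fold H3K27me3, and with N-MYC at 6.41-fold and weak H3K27ac at 3.49-fold. Its neighbour Cdkn2b, which encodes p15, was weaker, with 5.96-fold H3K4me3, 7.34-fold H3K27me3 and no H3K27ac or N-MYC. Cdkn1a, which encodes p21, had 10.9-fold H3K4me3, 12.6-fold H3K27me3 and 8.72-fold H3K27ac, with both forms of the lysine over 1284 bp. Ccnd2, the cyclin D2 gene, resembled the T-lineage factors, with 42.1-fold H3K4me3 over 7770 bp, 24.8-fold H3K27ac, 10.3-fold N-MYC, and H3K27me3 at 5.89-fold over 1219 bp.

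In the signalling lists the bivalent share ran from 18.2% (Eph receptors and ephrins) to 39.1% (Notch). Of 23 Notch pathway genes 9 were bivalent, 5 with H3K27ac, of 32 BMP and TGF-beta genes 9, 3 with H3K27ac, of 38 Wnt ligands, receptors and antagonists 9, 1 with H3K27ac, and of 22 Eph receptors and ephrins 4. Among Notch ligands, Dll1 was wholly covered with 20.5-fold H3K27me3 and 7.06-fold H3K4me3, and Jag1 had 18.3 and 10.2-fold with weak H3K27ac (4.05-fold). Among Notch targets, Hes7, a repressor of the segmentation clock, and Nrarp, a feedback inhibitor, held H3K27ac at 9.68 and 6.20-fold, and Hey1 held none. Among BMP and TGF-beta receptors, Bmpr2 had 29.9-fold H3K4me3 and 24.3-fold H3K27ac with 1096 of 3007 bp covered, whereas Bmpr1a was wholly covered with 7.003-fold H3K4me3, 15.1-fold EZH2 and no H3K27ac. Acvr2a and Acvr2b, the activin receptors, both held N-MYC, at 5.61 and 10.3-fold, and only Acvr2b held H3K27ac (12.3-fold). In the Wnt list, the Frizzled receptor genes Fzd4 and Fzd3 were wholly covered, with 14.2 and 14.3-fold EZH2 and no H3K27ac. Receptors of the same pathway thus lay at both ends of the range.

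Genes of the Polycomb machinery itself were in the bivalent set. Of 33 PRC1 and PRC2 subunit genes 11 were bivalent, 10 with H3K27ac, and the other 22 had H3K4me3 alone. The 11 were Bmi1, Cbx2, Cbx7, Cbx8, Epop, Pcgf1, Pcgf2, Phc1, Phc2, Rybp and Scmh1, of which Epop is a PRC2 accessory protein and the others belong to PRC1. Bmi1 had the strongest EZH2 among these named, 25.5-fold, with 16.5-fold SUZ12, 27.02-fold H3K4me3 and 24.1-fold H3K27ac, and H3K27me3 at 9.96-fold over 1287 of 3102 bp. Pcgf1 had 26.4-fold H3K4me3 and a 22.4-fold H3K27me3 peak that reached 596 bp into it from a summit 8735 bp away, with no base shared by H3K27ac and H3K27me3. Rybp had 37.3-fold H3K4me3 and 10.3-fold N-MYC with 741 of 3061 bp covered. Phc2 had no H3K27ac and was wholly covered, at 9.05 and 8.47-fold. The 19 genes of H3K4 methylase complexes and of H3K4 and H3K27 demethylases had no bivalent member, with 18 under H3K4me3 alone, and neither did the 76 cytosolic ribosomal protein genes.

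Receptor and channel lists had bivalent shares between 5.26% and 12.5%, beside 6.89% of all genes. Of 57 cytokine and chemokine receptor genes 3 were bivalent, of 24 TNF receptor family genes 3, and of 92 potassium channel genes 7. Il15ra, the receptor chain that presents interleukin 15, had 29.0-fold H3K4me3, 14.2-fold H3K27ac and 10.7-fold H3K27me3 over 2294 of 2450 bp, and no SUZ12. Il1r1 and Il6ra, receptor genes of interleukin 1 and interleukin 6, had weak H3K4me3, 5.45 and 2.98-fold, in wholly covered peaks. Among channels, Kcnk5, a two-pore-domain potassium channel, was wholly covered with 12.2-fold H3K4me3, 16.2-fold H3K27me3 and 4.70-fold H3K27ac.

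Some genes were bivalent at 1 start and had H3K4me3 without H3K27me3 at another. Of 1032 genes with annotated starts at least 5 kb apart, 155 had a bivalent peak at a start, and 31 of these had another H3K4me3 peak at a start at least 5 kb away. The genes named here were chosen after their values were seen. At Celf2, an RNA-binding splicing regulator, the bivalent start had 10.7-fold H3K4me3, 11.3-fold H3K27me3 and no H3K27ac, and a start 150373 bp away had 29.4-fold H3K4me3 and 19.7-fold H3K27ac. Tsc22d3, the glucocorticoid-induced leucine zipper gene, showed 10.7-fold H3K4me3 and 12.1-fold H3K27me3 without H3K27ac at its bivalent start, against 28.0-fold H3K4me3 and 13.8-fold H3K27ac at a start 57854 bp away. Runx3, a factor of cytotoxic T cells, had the opposite order of H3K4me3, 22.5-fold at the bivalent start and 4.90-fold at the other, 31900 bp away.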

How the data were processed

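The files were 7 peak lists, 1 per antibody, of MYCN-driven T-cell lymphoma. The 2 input samples were not analysed here. FastQC, Bowtie2, SAMtools, MACS2 and deepTools and the build mm10 or GRCm38 are named in the submitters' processing notes, without versions, roles or order. Whether the inputs served as controls, and which animal gave each library, is not given in the sources used here. Column 7 of each list was taken as the peak's fold enrichment, a linear ratio over background that the authors' peak caller gave. The −log10 p-value and −log10 q-value and the summit position were used as deposited, and the deposited whole-number score entered no result. The smallest −log10 q in the lists was 2.00 to 2.08, so a missing peak means no call and not absence of the mark. Read depth is not stated, so the depth behind a missing call is unknown. No unit had replicates and no p-value was computed.

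Overlap counted from 1 bp, and covered length was that of all H3K27me3 peaks together. Where several peaks of a list overlapped a bivalent peak, the highest fold was taken. The placement of a list's summit in H3K27me3 was read for its strongest peak, where that summit lay inside the bivalent peak. Wholly covered peaks were included. Shares have 95% Wilson intervals and medians have binomial order-statistic intervals. Starts of 17491 genes came from the RefSeq GRCm38.p6 promoter table, and the other 4392 protein-coding genes were read by both gene ends. Genes named were those with the longest overlap, the highest smaller fold of both marks, the highest H3K27ac or N-MYC fold and the most distant summits, and up to 5 per gene list by overlap length, with all bivalent genes of the T-lineage, CDK inhibitor and MYC lists. Further genes are named where a count of genes is spelled out. The bivalent set and the gene lists were chosen with earlier results of these data known. The overlap code was checked on simulated data (Python 3.11.15, pandas 2.3.3, numpy 2.4.6, scipy 1.17.1). Alternatives were a longer overlap, stricter q and fold, merged H3K27me3 peaks, a 50% overlap with other lists and a 5 kb gene window.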

Additional observations from a re-analysis of the deposited data

How the results depend on the processing

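Of 75 values recomputed under other settings, 43 stayed within the interval or count limit of the value reported and 32 moved. The bivalent set held 1603 to 2052 peaks under these settings. With an overlap of at least 200 bp the bivalent share was 11.2%, the median overlap 654.5 bp, the summit inside H3K27me3 73.7%, SUZ12 62.4% with and 80.9% without H3K27ac, and EZH2 80.6% without. With q of at most 1e-05 in every list the bivalent share was 11.4%, the median overlap 722 bp, the summit distance 910 bp, EZH2 72.0% with and 74.2% without H3K27ac, SUZ12 55.0% and p300 31.2% with H3K27ac, and gene starts 77.6%. With a fold of at least 4 in every list these were 10.9%, 740 bp, 928 bp, EZH2 73.0% and 72.4%, SUZ12 50.9% with and 64.1% without H3K27ac, N-MYC 36.8% and p300 29.1% with it, and gene starts 77.5%; H3K27ac itself was 46.3%. Merging H3K27me3 peaks within 1 kb gave a median overlap of 659 bp, a summit distance of 1146.5 bp and the summit inside in 76.3%. Requiring 50% of the shorter peak gave SUZ12 54.6% with and 72.8% without H3K27ac. A 5 kb gene window gave 84.6% with a gene start, 5 Hox, 1 Pax, 2 T-box and 5 cyclin, CDK and E2F genes; 25 of 29 gene lists stayed within 1.5 times. Promoters whose start lay in the peak had a median CpG ratio of 0.806. The order of the EZH2 shares with and without H3K27ac turned under 3 settings (fold of at least 4, merged peaks, 50% overlap). Under each setting they differed by less than their intervals, and the share with SUZ12 was lower with H3K27ac. The stricter settings also left smaller sets, and the cause of these shifts was not tested. Read depth is not stated, so a weak mark below the calling threshold cannot be told apart from an absent one. No paired analysis was possible because each antibody had 1 library.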
